A study of Homo sapiens with 24 samples.

Results

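The peptidylarginine deiminases are a small enzyme family, of which the 4 genes PADI1, PADI2, PADI3 and PADI4 were taken by name from a count table of 28278 genes. PADI3 was chosen by its CPM (counts scaled to library size) in the groups of these same libraries, where it stood out. Its values and log2 changes are therefore a description and carry no test, whereas PADI1 and PADI2 are given with p-values adjusted over all genes tested. RNA was sequenced from TYUC-1, a human neuroendocrine esophageal carcinoma line grown in suspension, to follow what induction of p63 does to these cells. The i-TAp63 line carries inducible TAp63 and the i-DNp63 line inducible ΔNp63, called the TAp63 and ΔNp63 lines here, and cultures received doxycycline at 1 µg/ml for 0, 1, 3 or 6 days of a 6 day course, with DMSO otherwise. Each of the 8 groups of line and day had 3 libraries, 24 in all. Both isoforms come from the gene TP63, which acts in squamous epithelia, by use of different start sites, and only the TAp63 protein has the full N-terminal transactivation domain. A treatment label also names EPZ-6438, an EZH2 inhibitor, for as many days as doxycycline, and the labels do not settle whether it was given, so days of induction and days of inhibitor cannot be told apart. Doxycycline given to cells with no construct was not analysed here. Replicates are described as biological, with no word on separate cultures. Each p-value therefore rests on library-to-library spread, which may be technical.

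Peptidylarginine deiminases are calcium-dependent enzymes that turn arginine residues of proteins into citrulline, which removes a positive charge and loosens the protein's fold and contacts. PADI1 and PADI3 are known from the upper epidermis and the hair follicle, where they act on keratins, filaggrin and trichohyalin before transglutaminases cross-link these proteins. PADI2 is the widely expressed member, known from brain, muscle and secretory tissue. PADI4 is known from granulocytes, where it enters the nucleus and citrullinates histones. PADI3 is best known from the inner root sheath of the hair follicle, with trichohyalin and the hair cuticle protein S100A3 as substrates.

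All 4 genes lie within 297.2 kb of chromosome 1 in hg38. PADI2 spans chr1:17066761-17119451 on the minus strand. PADI1 spans chr1:17205128-17246007, PADI3 spans chr1:17249098-17284232 and PADI4 spans chr1:17308197-17364004, all on the plus strand. The end of PADI1 is separated from the start of PADI3 by 3090 bases. Fragments were counted over whole spans, introns included and without regard to strand, so the levels hold spliced and unspliced RNA. The annotation used for counting also placed PADI1, PADI3 and PADI4, but not PADI2, on a fix patch of the genome, a corrected copy of part of the chromosome, as it did for 571 genes of the table. The microRNA gene MIR3972 lies in an intron of PADI3, at chr1:17277889-17277975, and had 0 counts in every library. As its bases also lie in the counted PADI3 span, that 0 is no measure of its expression. Its mature product is shown because it is a second annotated RNA inside the PADI3 span, with the seed (bases 2 to 8) in capitals.
hsa-miR-3972: cUGCCAGCcccguuccagggca

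The regions around the starts of PADI1, PADI2 and PADI4 differed in base composition. They are shown for the 3 members that a RefSeq start region matched. PADI3 had no match, so its start region cannot be compared with these. Each window runs from 250 bases before to 50 bases after the start, 5′ to 3′ on the gene's strand. The sequences are those of GRCh38.p14. Capitals mark the motifs searched on both strands: GGGCGG (the GC box), TATAAA (the TATA box), TGANTCA (an AP-1 motif), CCAAT, and the p53-family half-site. A GC box on the other strand reads CCGCCC.
PADI2, chr1:17119402-17119701, minus strand: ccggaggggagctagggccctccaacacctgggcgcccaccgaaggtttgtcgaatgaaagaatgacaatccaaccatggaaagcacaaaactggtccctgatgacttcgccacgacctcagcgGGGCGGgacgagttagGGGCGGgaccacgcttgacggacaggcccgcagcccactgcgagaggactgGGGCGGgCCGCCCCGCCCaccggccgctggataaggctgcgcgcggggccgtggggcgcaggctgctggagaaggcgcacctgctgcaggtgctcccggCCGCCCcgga
PADI1, chr1:17204878-17205177, plus strand: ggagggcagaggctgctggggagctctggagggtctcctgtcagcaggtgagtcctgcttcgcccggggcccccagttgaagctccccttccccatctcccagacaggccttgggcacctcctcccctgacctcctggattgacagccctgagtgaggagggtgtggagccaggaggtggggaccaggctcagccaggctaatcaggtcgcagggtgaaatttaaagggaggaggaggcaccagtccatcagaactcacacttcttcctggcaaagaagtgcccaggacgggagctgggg
PADI4, chr1:17307947-17308246, plus strand: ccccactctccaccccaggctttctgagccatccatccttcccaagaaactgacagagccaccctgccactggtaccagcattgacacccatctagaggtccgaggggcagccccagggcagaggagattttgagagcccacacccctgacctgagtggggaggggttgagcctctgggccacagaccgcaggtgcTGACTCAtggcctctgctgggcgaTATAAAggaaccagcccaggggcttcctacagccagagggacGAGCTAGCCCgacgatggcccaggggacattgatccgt

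The PADI2 window had 69% G and C, 28 CpG dinucleotides and 6 GC boxes, a pair of which overlap. The PADI1 window had 63% G and C, 4 CpG dinucleotides and none of these motifs. The PADI4 window had 61.7% G and C, 7 CpG dinucleotides and 1 match each to the TATA box, the AP-1 motif and the p53-family half-site. Over 35116 windows of the same length the medians were 58.7% G and C and 14 CpG dinucleotides. The GC box was in 45% of these windows, TATAAA in 11.5%, TGANTCA in 7.71%, CCAAT in 34.6% and the p53-family half-site in 6.63%. PADI2 thus stood above the median window in CpG count, and PADI1 and PADI4 stood below it. A match is a description of letters and not a binding site.

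Totals per library ran from 6375963 to 22019974 counts, apart from replicate 3 of ΔNp63 day 1 with 1530847. That library scored -193.9 on a first principal component holding 49.6% of the variance, where the other 23 scored between -17.0 and 24.9. HBG2, a fetal globin gene, reached 1727 CPM in it, and the summed level of 6 erythroid genes was 2666 CPM, against at most 48.2 CPM elsewhere. Its summed level of 6 granulocyte genes was 19.3 CPM, against at most 1.54 CPM elsewhere. ITGAM alone gave 16.6 CPM of that sum, and MPO, CEACAM8 and S100A12 had no counts there. This library had 6 counts of PADI3, 4 of PADI1, 2 of PADI2 and 1 of PADI4. Values of the members at day 1 of the ΔNp63 line are given with and without it. Of the neuroendocrine markers, CHGA and INSM1 reached at most 1.11 and 0.779 CPM, and the tuft cell factor POU2F3 had 63.8 to 244.4 CPM. The summed level of the 3 tuft cell markers POU2F3, BMX and TRPM5, each of which was detected, moved with the days: it ran from 148.5 to 172.3 CPM at day 3 and from 169.5 to 189.0 CPM at day 6 of the ΔNp63 line, against 254.8 to 272.8 CPM at day 0. In the TAp63 line it ran from 217.8 to 239.2 CPM at day 3 and from 214.9 to 222.8 CPM at day 6, against 262.4 to 316.0 CPM at day 0.

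TP63 counts, which sum the isoforms, checked the induction. TP63 averaged 2.93 ± 0.036, 371.0 ± 45.1, 557.7 ± 92.8 and 655.1 ± 41.3 CPM (SD, n = 3) at days 0, 1, 3 and 6 of the TAp63 line. It averaged 4.35 ± 0.517, 455.4 ± 342.3, 865.2 ± 140.1 and 925.6 ± 99.97 CPM (SD, n = 3) on the same days of the ΔNp63 line. The day 1 mean of the ΔNp63 line was 648.5 CPM over 2 libraries without replicate 3, which had 69.2 CPM. TP63 rose in all 6 comparisons with day 0. At day 6 its log2 change was 7.80 ± 0.573 in the TAp63 line and 7.74 ± 0.561 in the ΔNp63 line (edgeR quasi-likelihood test, adjusted p = 7.12e-08 and 5.24e-08).

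PADI3 was high in ΔNp63 libraries that had received doxycycline, apart from the day 1 library that stood apart, and low in all others. At day 0 of the ΔNp63 line its 3 libraries had 2.96, 3.07 and 3.08 CPM. At day 1 they had 34.2, 33.0 and 3.99 CPM, the last being the library that stood apart. At day 3 they had 99.3, 90.4 and 91.0 CPM. The induced groups lay above day 0 without overlap, as they did for 3.96%, 13.1% and 10% of the genes tested at days 1, 3 and 6, and within day 3 the lowest and the highest library lay close together. At day 6 the libraries had 85.9, 82.8 and 96.7 CPM, which overlapped those of day 3. The summed level of the tuft cell markers was lower in the same induced groups, also in the TAp63 line. That sum is mainly POU2F3 and BMX, as TRPM5 had at most 2.39 CPM in any library. The part of tuft cell state in the PADI3 values was not tested. In bulk RNA a change in the number of cells that express PADI3 and a change in its RNA per cell cannot be told apart.

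PADI3 stayed low on each day of the TAp63 line. Its libraries had 4.93, 2.61 and 3.13 CPM at day 0, and 6.00, 4.21 and 4.33 CPM at day 1. They had 4.35, 6.49 and 7.45 CPM at day 3 and 3.999, 4.06 and 5.46 CPM at day 6. Every day of doxycycline in this line overlapped its day 0, and the highest TAp63 library, at 7.45 CPM, lay well below ΔNp63 replicates 1 and 2 of day 1.

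**Figure D1:**
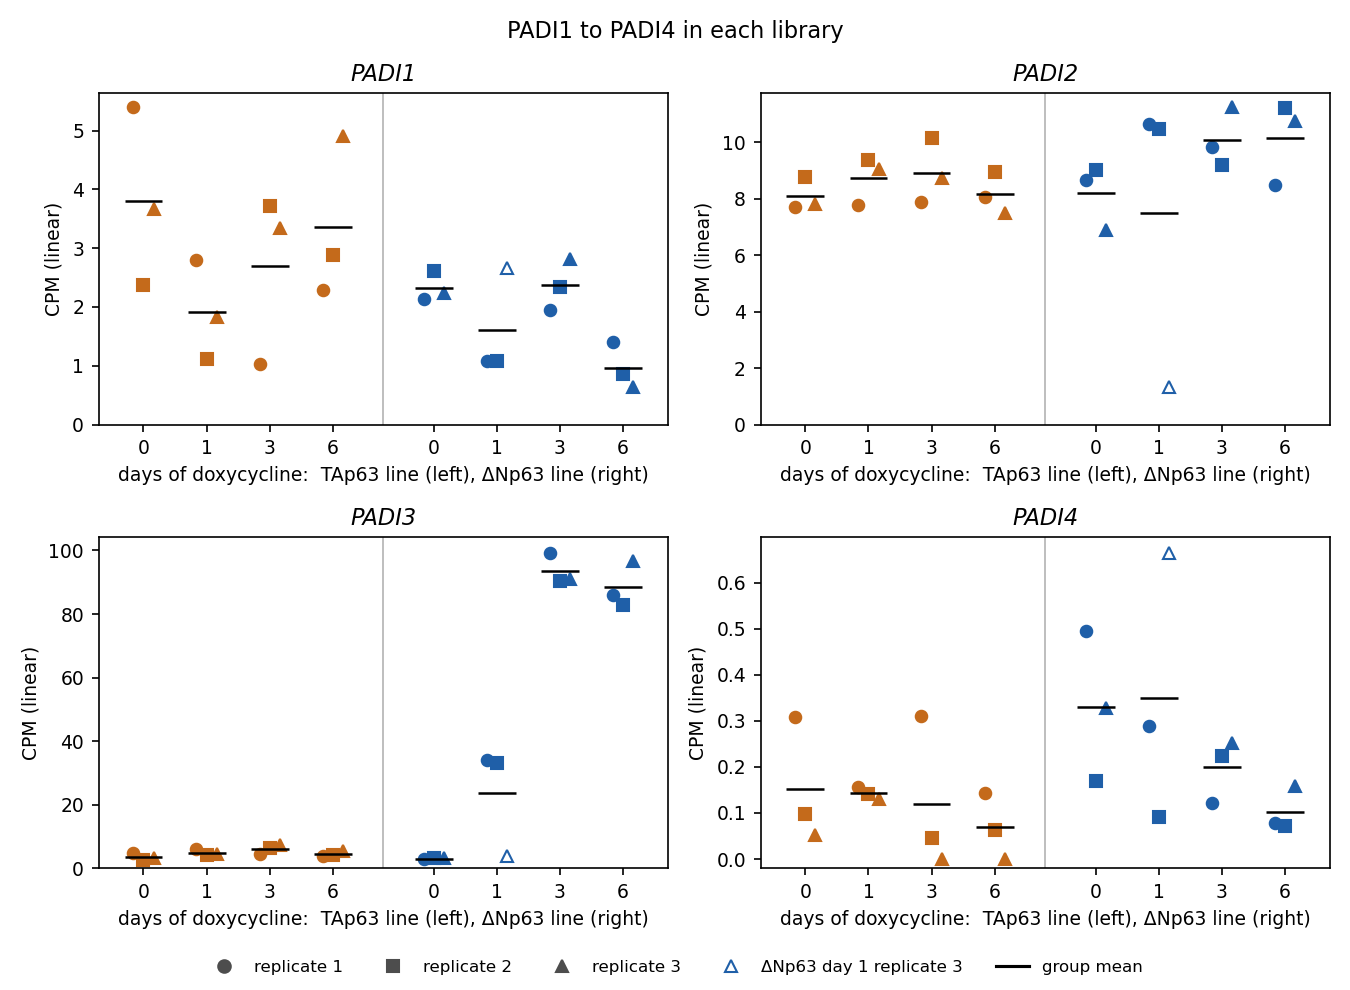
Level of PADI1, PADI2, PADI3 and PADI4 in CPM (linear axes that differ between panels) in each of the 24 libraries, by day of doxycycline, with the TAp63 line left and the ΔNp63 line right of the grey line. Symbols are replicates, bars are group means, and the open triangle is ΔNp63 day 1 replicate 3. PADI3 lies between 82.8 and 99.3 CPM at days 3 and 6 of the ΔNp63 line and at most at 7.45 CPM in every TAp63 library.

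As changes, PADI3 was higher in the ΔNp63 line by 3.13 ± 0.368 at day 1, 4.94 ± 0.382 at day 3 and 4.86 ± 0.382 at day 6 (log2 ± SE, against day 0). Without the library that stood apart, the day 1 change was 3.46. The group means were 93.6 ± 5.01 CPM at day 3 and 88.5 ± 7.28 CPM at day 6, against 3.04 ± 0.0653 CPM at day 0 (SD, n = 3), ratios of 30.8 and 29.1. In the TAp63 line the changes were 0.53 ± 0.385, 0.86 ± 0.381 and 0.42 ± 0.385 at days 1, 3 and 6, with a highest ratio of means of 1.71 at day 3. These values place PADI3 at rank 308 at day 1, 10 at day 3 and 7 at day 6 among the log2 changes of 15642 tested genes in the ΔNp63 line. In the TAp63 line its ranks on those days were 483, 399 and 1304.

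The time course in the ΔNp63 line was a steep gain up to day 3 and a flat stretch after it. Day 3 stood 1.81 ± 0.325 above day 1 on the log2 scale, or 1.48 above it without the library that stood apart. Day 6 differed from day 3 by -0.08 ± 0.308. In the TAp63 line day 3 differed from day 1 by 0.33 ± 0.368 and day 6 from day 3 by -0.44 ± 0.368. The change from day 0 in the TAp63 line minus that in the ΔNp63 line was -2.60 ± 0.529 at day 1 (-2.91 without the library that stood apart), -4.08 ± 0.526 at day 3 and -4.44 ± 0.530 at day 6. At day 0 the TAp63 line differed from the ΔNp63 line by 0.14 ± 0.395, a difference smaller than its SE.

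**Figure D2:**
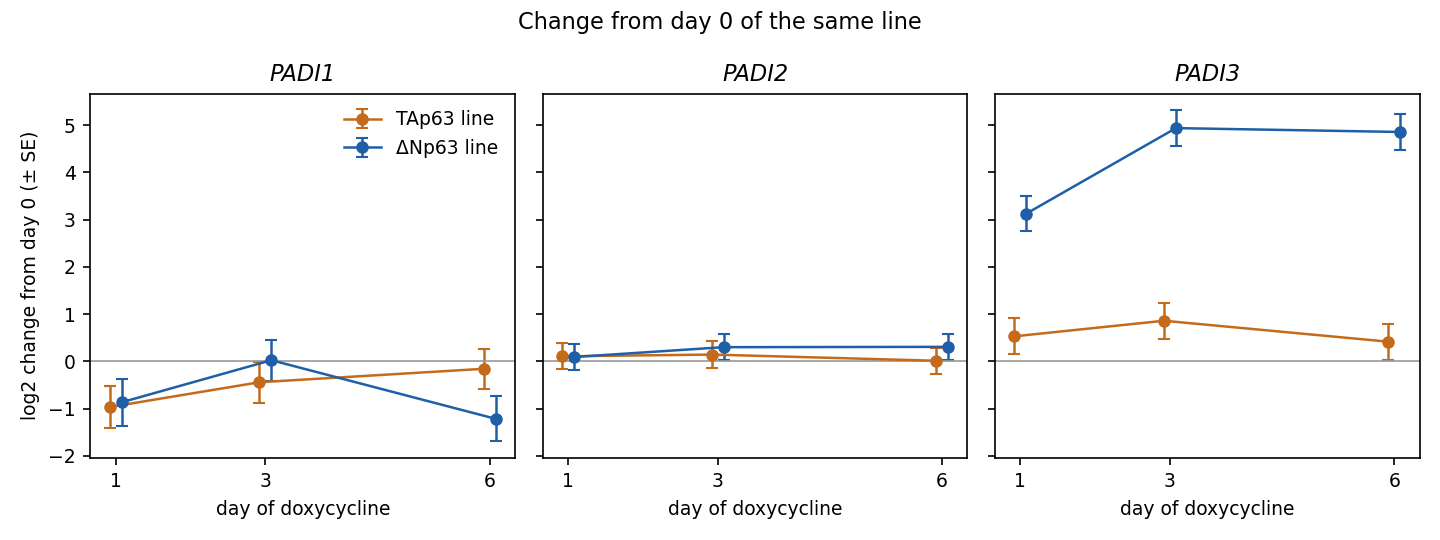
Log2 change from day 0 of the same line (± SE from the edgeR fit) for PADI1, PADI2 and PADI3 at days 1, 3 and 6 of doxycycline in the TAp63 line (orange) and the ΔNp63 line (blue). The PADI3 curve of the ΔNp63 line stands far above the other 5, reaching 4.94 at day 3 and 4.86 at day 6. Day 1 of the ΔNp63 line includes the library that stood apart.

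Ordered by group mean, PADI3 was highest at day 3 of the ΔNp63 line, then at day 6 and day 1 of that line. The day 1 mean was 23.7 ± 17.1 CPM (SD, n = 3), or 33.6 ± 0.880 CPM over 2 libraries without replicate 3. After these came days 3, 1, 6 and 0 of the TAp63 line, with 6.09 ± 1.59, 4.84 ± 0.999, 4.51 ± 0.828 and 3.56 ± 1.22 CPM (SD, n = 3), and last day 0 of the ΔNp63 line. Days 3 and 6 of the ΔNp63 line overlapped, as did each neighbouring pair among the 5 lowest groups. Day 1 of the ΔNp63 line was separated from both its neighbours in the order once replicate 3 was left out.

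The lines differed in PADI3 also where their TP63 counts were alike. At day 6 the TAp63 libraries had 610.6, 692.3 and 662.5 CPM of TP63 and at most 5.46 CPM of PADI3. Replicates 1 and 2 of ΔNp63 day 1 had 721.3 and 575.8 CPM of TP63, which brackets the TAp63 values, with 34.2 and 33.0 CPM of PADI3. The library that stood apart had less TP63 than any other induced library and a PADI3 level near that of day 0. The libraries fell into separate clusters, so no correlation between the genes is given.

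**Figure D3:**
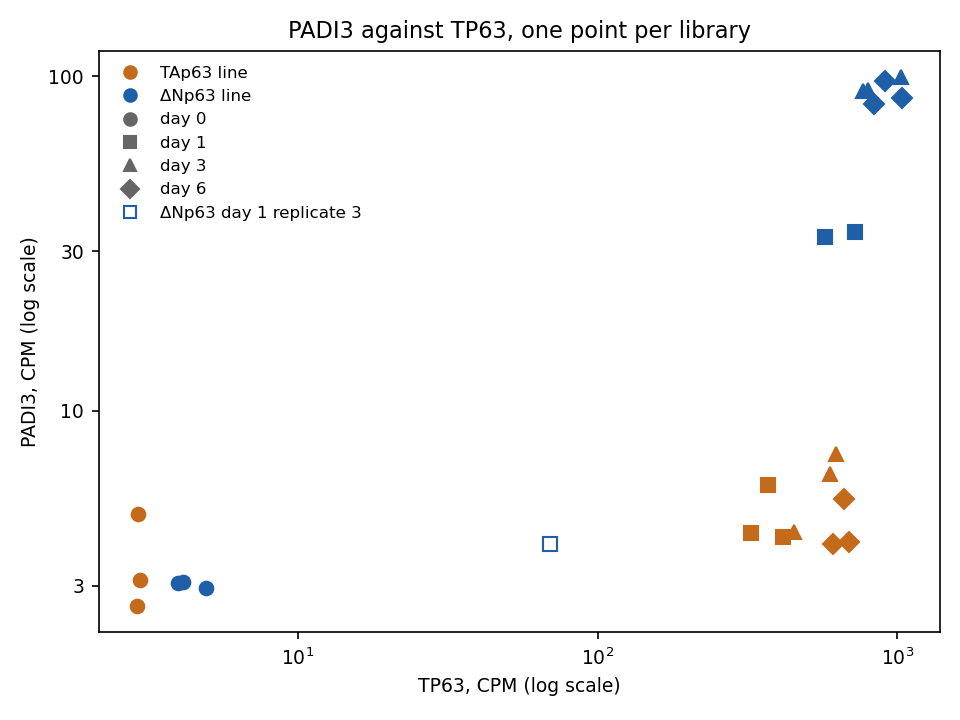
PADI3 against TP63, both in CPM on log axes, with 1 point for each of the 24 libraries. Colour gives the line, symbol gives the day, and the open square is ΔNp63 day 1 replicate 3. At 576 to 721 CPM of TP63, ΔNp63 day 1 libraries lie at 33.0 and 34.2 CPM of PADI3, whereas TAp63 libraries of that TP63 range lie at 7.45 CPM or below.

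PADI1, the epidermal enzyme whose gene ends just before PADI3 starts, stayed near its day 0 level or lay below it. At day 0 of the ΔNp63 line it had 2.14, 2.61 and 2.23 CPM. At day 1 it had 1.09, 1.09 and 2.66 CPM. The highest value, from 4 counts in the library that stood apart, lay above all 3 libraries of day 0, and the others lay below them. The day 1 change was -0.87 ± 0.493 with that library and -1.10 ± 0.484 without it, and neither passed the test (edgeR adjusted p = 0.502 and 1.00). At day 3 PADI1 had 1.96, 2.34 and 2.82 CPM, overlapping day 0. At day 6 it had 1.40, 0.863 and 0.632 CPM, below all 3 libraries of day 0. That day 6 difference was -1.22 ± 0.474 on the log2 scale and did not pass the test (edgeR adjusted p = 0.313, unadjusted p = 0.0181), also with the replicate number as a block (adjusted p = 0.202). All 3 libraries below all 3 of day 0 was a pattern of 7.68% of the genes tested in this comparison. Its sign was opposite to that of PADI3 in the same libraries.

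The PADI1 libraries of any day of the TAp63 line overlapped those of every other day of that line. They had 5.39, 2.37 and 3.66 CPM at day 0 and 2.80, 1.12 and 1.84 CPM at day 1. They had 1.03, 3.72 and 3.34 CPM at day 3 and 2.28, 2.88 and 4.91 CPM at day 6. The day 1 change of -0.97 ± 0.444 did not pass the test either (edgeR adjusted p = 1.00, unadjusted p = 0.0412).

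PADI2 varied little apart from a single library. It lay between 6.89 and 11.2 CPM in 23 libraries, and had 1.33 CPM, from 2 counts, in the library that stood apart. At day 1 of the ΔNp63 line it averaged 7.48 ± 5.32 CPM (SD, n = 3) with that library and 10.5 ± 0.121 CPM over 2 libraries without it, with log2 changes from day 0 of 0.09 and 0.36 that did not pass the test (edgeR adjusted p = 0.961 and 1.00). Its means in that line were 10.1 ± 1.03 CPM at day 3 and 10.2 ± 1.45 CPM at day 6, against 8.19 ± 1.14 CPM at day 0 (SD, n = 3). The day 3 libraries, with 9.84, 9.20 and 11.2 CPM, all lay above the day 0 libraries, with 8.64, 9.03 and 6.89 CPM, as was so for 13.1% of genes tested. The difference of 0.30 ± 0.272 on the log2 scale did not pass the test (edgeR adjusted p = 0.789). PADI2 means of the TAp63 line ran from 8.09 ± 0.579 CPM at day 0 to 8.92 ± 1.16 CPM at day 3 (SD, n = 3).

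PADI4 was hardly detected. It had 52 counts over all libraries and 0 to 6 in any library, and did not pass the filter on low counts. The groups of the ΔNp63 line held 14, 7, 10 and 3 counts at days 0, 1, 3 and 6, and those of the TAp63 line 5, 6, 4 and 3. Day 6 against day 0 of the ΔNp63 line gave a ratio of 0.292 with a 95% interval of 0.0537 to 1.04, and of the TAp63 line 0.677 with an interval of 0.105 to 3.48. Both intervals cover counting error only and both include 1. The granulocyte genes, which mark the cells known for PADI4, summed to at most 1.54 CPM outside the library that stood apart, and CEACAM8 was at 0 in all 24.

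Of the 3 members that were tested, the 2 other than PADI3 were called (edgeR adjusted p under 0.05) in 0 of 14 comparisons. At an unadjusted p under 0.05 PADI1 had 3 and PADI2 0 of these, and DESeq2 called 0. The share of all tested genes called was 0.121%, 0.435% and 0.441% at days 1, 3 and 6 of the TAp63 line and 0.0959%, 2.2% and 2.03% at days 1, 3 and 6 of the ΔNp63 line. Between days it was 0.128% for day 3 against day 1 and 0% for day 6 against day 3 in the TAp63 line, and 1.26% and 0.0128% in the ΔNp63 line. For the difference between the lines' changes it was 0%, 0.0448% and 0.0831% at days 1, 3 and 6, and between the lines at day 0 it was 0.0128%. At such shares few genes were called, and 0 calls for PADI1 and PADI2 is no result about these 2 genes. With the replicate number as a block, the genes called in the ΔNp63 line were 1078 at day 3 and 714 at day 6, against 344 and 318 without it, and PADI1 and PADI2 were still not among them.

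Because counts cannot be compared between genes of different length, levels were divided by exon length from GENCODE release 29. At day 6 of the ΔNp63 line PADI3 had 27.7 ± 2.28, PADI2 1.70 ± 0.243, PADI1 0.197 ± 0.0807 and PADI4 0.0345 ± 0.0162 CPM per kb of exon (SD, n = 3). At day 0 of that line PADI2 had 1.37 ± 0.190, PADI3 0.953 ± 0.0205, PADI1 0.475 ± 0.0510 and PADI4 0.111 ± 0.0545 CPM per kb of exon (SD, n = 3). PADI3 thus stood above PADI2 at day 6 and below it at day 0, and PADI2, PADI1 and PADI4 kept their order. Of these genes all but PADI2 were also annotated on a fix patch, and whether that lowered their counts was not tested. At day 6 of the TAp63 line PADI3, with 1.41 ± 0.260, and PADI2, with 1.37 ± 0.121 CPM per kb of exon (SD, n = 3), did not differ beyond their spread. Divided by the whole span that was counted, PADI2 stood above PADI3 there, with 0.155 against 0.128 CPM per kb of span.

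Genes next to the family gave no call against day 0. Within 300 kb of the cluster the table held 17 other genes, of which 7 had 0 counts everywhere and 6 were tested: CROCC, ATP13A2, SDHB, PADI6, RCC2 and ARHGEF10L. Those with 0 counts include MIR3972 and small RNA genes annotated at the same coordinates as each other, for which 0 is no measure of expression. edgeR and DESeq2 called 0 of the 6 in the comparisons with day 0, where edgeR called between 0.0959% and 2.2% of all tested genes, so 0 of 6 is near the background. At an unadjusted p under 0.05 edgeR had 1, PADI6 at day 1 of the ΔNp63 line, with 0.940, 0.725 and 0.665 CPM, against 1.56, 1.08 and 1.64 CPM at day 0. That change was -0.81 ± 0.310 with the library that stood apart and -0.78 ± 0.304 without it (edgeR adjusted p = 0.261 and 1.00). The neighbours' log2 changes at day 6 of the ΔNp63 line ran from -0.32 to -0.02, with a median of -0.15 where all tested genes had -0.01. PADI6, the oocyte member of the family and the neighbour on the far side of PADI4, had 0.656 to 2.201 CPM. With the replicate number as a block, RCC2, a mitotic regulator, and SDHB, a subunit of succinate dehydrogenase, fell at day 3 of the ΔNp63 line by 0.33 and 0.28 in log2 (edgeR adjusted p = 0.0284 and 0.0498). Over the other fits compared, without the block or with it, their adjusted p ran from 0.00256 to 0.519 and from 0.00357 to 0.486. RCC2, which the annotation also places on a fix patch, was counted at 334.8 to 535.0 CPM.

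**Figure D4:**
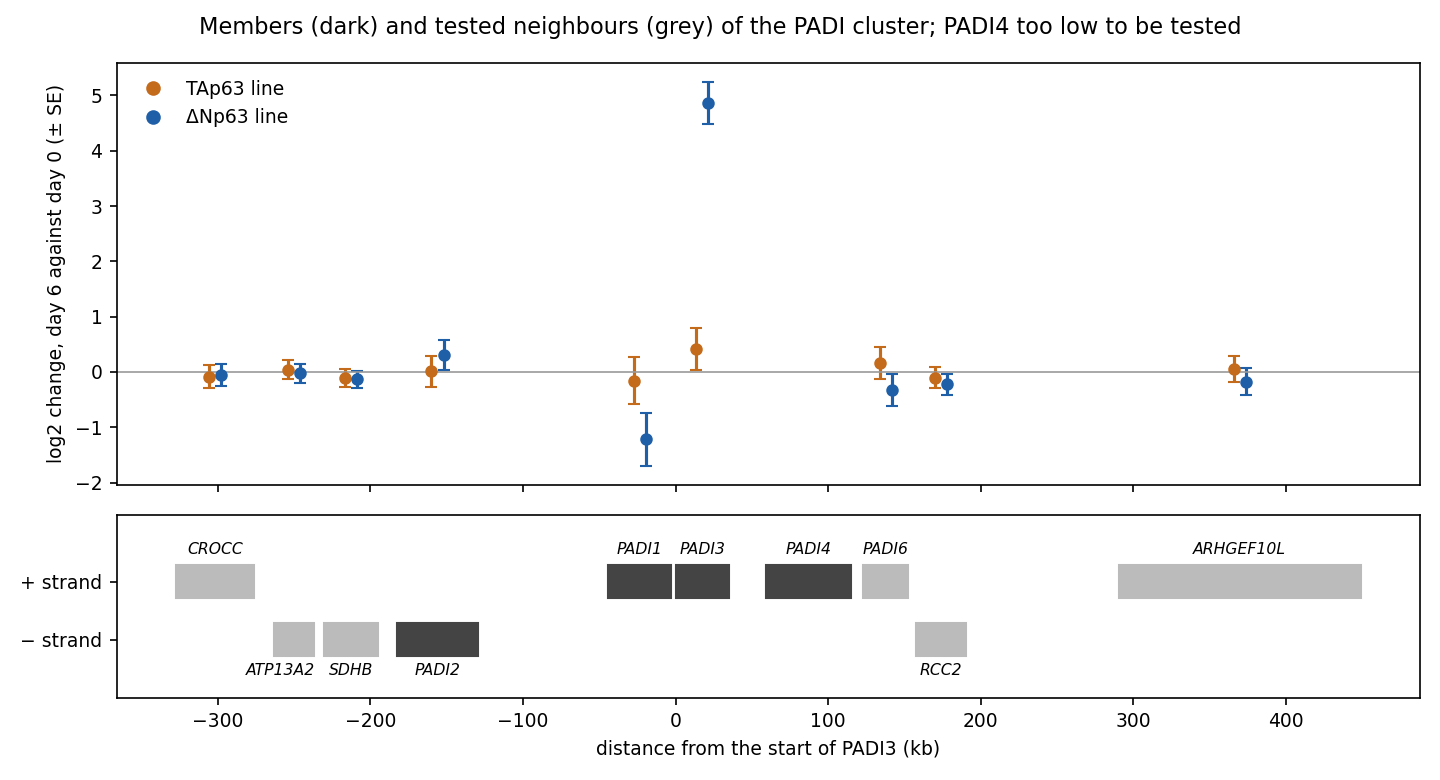
Log2 change at day 6 against day 0 (± SE, upper panel) of the tested genes of the PADI cluster and its neighbours, for the TAp63 line (orange) and the ΔNp63 line (blue), above a map of the genes in kb from the start of PADI3. Members are dark, neighbours are grey, and PADI4 has no point because it was too low to be tested. PADI3 at 4.86 in the ΔNp63 line is flanked by PADI1 at -1.22 and PADI6 at -0.32.

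Genes for proteins that PADI3 and PADI1 modify in skin and hair were hardly detected, apart from TCHH and KRT10. Of 7 such genes, 3 had 0 counts in every library, KRT1 among them, and the 2 named passed the filter. The filaggrin gene FLG had 16 counts in all libraries. TCHH, which encodes trichohyalin, had 5.53, 2.30 and 3.63 CPM at day 6 of the ΔNp63 line, against 1.07, 0.908 and 1.38 CPM at day 0. Its day 6 libraries all lay above those of day 0, as was so for 10% of genes tested. TCHH rose by 1.77 ± 0.406 in log2 (edgeR adjusted p = 0.0208), 1 of 2 tested genes of the list, where 1.62% of all genes were called higher. Leaving out any of 5 libraries of the 2 groups ended this call, with adjusted p up to 0.192.

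TCHH had 2.38, 2.73 and 2.63 CPM at day 3 of the ΔNp63 line, a difference of 1.203 ± 0.402 from day 0 that was not called (edgeR adjusted p = 0.157). With the replicate number as a block, or without the library that stood apart, it was called there too (adjusted p = 0.0461 and 0.0311). At day 6 of the TAp63 line TCHH had 3.00, 1.81 and 1.67 CPM, against 1.39, 1.35 and 1.06 CPM at day 0. The change of 0.78 ± 0.408 did not pass the test (edgeR adjusted p = 1.00). The difference between the lines at day 6, -0.98 ± 0.573, did not pass either (edgeR adjusted p = 1.00). The inner root sheath keratins, which mark the hair follicle cells known for PADI3 and trichohyalin, were at or near 0: KRT25 had 0 counts and KRT27, KRT28, KRT71, KRT72, KRT73 and KRT74 had at most 6 counts each over all libraries. KRT10, a suprabasal keratin and PADI1 substrate, had 47.6 to 66.6 CPM and was called in none of the 6 comparisons with day 0.

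Enzymes that cross-link or cut the same proteins included genes that moved. Of 14 on the list 10 were tested, and 3 rose at day 3 and at day 6 of the ΔNp63 line, where 1.66% and 1.62% of all tested genes were called higher. At day 1 of that line 0 of the 10 rose, where 0.0895% of all tested genes were called higher, with 3 at an unadjusted p under 0.05 and 1, TGM2, called higher by DESeq2. The TGM2 change was 4.55 ± 1.35 with the library that stood apart and 0.28 ± 0.953 without it (edgeR adjusted p = 0.154 and 1.00). Of the 10, 0, 1 and 1 rose in the TAp63 line at days 1, 3 and 6, where 0.121%, 0.428% and 0.428% of all tested genes were called higher. The median log2 change of the 10 at day 6 was 0.33 in the ΔNp63 line and 0.13 in the TAp63 line, where all tested genes had -0.01 in both. The genes that rose in the ΔNp63 line at both days were CAPN1, PRSS8 and KLK7, and in the TAp63 line KLK7. KLK7 passed the filter on low counts only through induced libraries, where it was high. None of these is a cross-linking enzyme: CAPN1 encodes the large subunit of calpain 1, a filaggrin-cutting protease, PRSS8 the membrane protease prostasin, and KLK7 a kallikrein of the stratum corneum.

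CAPN1 had 331.0, 341.3 and 357.5 CPM at day 6 of the ΔNp63 line, against 222.7, 227.2 and 193.8 CPM at day 0. The groups did not overlap, as was so for 10% of genes tested, and CAPN1 rose by 0.68 ± 0.127 in log2 (edgeR adjusted p = 0.00357). At day 3, with 322.5, 315.1 and 300.9 CPM, it rose by 0.54 ± 0.126 (edgeR adjusted p = 0.0233), a call that ended when any of 6 libraries of the 2 groups was left out, with adjusted p up to 0.133. CAPN1 in the day 6 libraries of the TAp63 line had 213.0, 232.2 and 219.5 CPM, against 203.4, 204.7 and 201.2 CPM at day 0. That change of 0.13 ± 0.126 did not pass the test (edgeR adjusted p = 1.00), nor did the difference between the lines of -0.55 ± 0.178 (edgeR adjusted p = 0.8001, unadjusted p = 0.00558). The block alone did not call that difference (adjusted p = 0.198), and the block without the library that stood apart did, at -0.55 ± 0.104 (adjusted p = 0.00291).

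PRSS8 had 30.1, 32.9 and 33.8 CPM at day 6 of the ΔNp63 line, against 16.6, 20.3 and 16.7 CPM at day 0, and rose by 0.85 ± 0.222 in log2 (edgeR adjusted p = 0.0492). It rose by 0.83 ± 0.220 at day 3 (edgeR adjusted p = 0.0493). Both calls stood at the threshold, and 16 of the 24 fits that left out a single library did not make them, with adjusted p up to 0.199 at day 6 and 0.211 at day 3. With the replicate number as a block both were made (adjusted p = 0.0246 and 0.0220). PRSS8 of the TAp63 line had 18.4, 25.3 and 27.6 CPM at day 6, against 18.3, 12.8 and 16.2 CPM at day 0, a difference that did not pass the test (edgeR adjusted p = 0.771).

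KLK7 was barely detected in uninduced cells. Its 3 libraries of ΔNp63 day 0 had 0 counts each, those of day 3 had 8, 9 and 16 and those of day 6 had 2, 5 and 4. The ratio of KLK7 to a floor of 3 counts for the day 0 group was 9.85 at day 3 and 4.99 at day 6. Both rises were called (edgeR adjusted p = 0.00760 and 0.0477). The ratios leave out the counting error of the induced groups, whose 95% intervals were 0.452 to 0.923 and 0.166 to 0.595 CPM. KLK7 of the TAp63 line had 14, 13 and 12 counts at day 3 and 12, 43 and 20 at day 6, against 0, 1 and 2 at day 0. The ratio was 15.1 at day 3, with a 95% counting interval of 4.81 to 76.6, and 28.2 at day 6, with an interval of 9.29 to 139.8 (edgeR adjusted p = 0.0386 and 0.00889). KLK7 was thus called in both lines. It passed the filter on low counts only through induced libraries, where it was high, as no day 0 library had more than 2 counts. Its calls are therefore not independent of that filter. Leaving out a single library ended the call in 1 of 24 fits at day 3 and 18 at day 6 of the ΔNp63 line (adjusted p up to 0.0529 and 0.170), and in 9 at day 3 and 3 at day 6 of the TAp63 line (adjusted p up to 0.353 and 0.126).

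Of 10 transcription factors known to act at PADI1 or PADI3 in human keratinocytes (SP1, SP3, the NF-Y subunits NFYA, NFYB and NFYC, MZF1 and the AP-1 genes JUN, JUNB, FOS and FOSL1), 9 were tested, and edgeR and DESeq2 called 0 in the 6 comparisons with day 0. With 0.0959% to 2.2% of all tested genes called there, 0 of 9 is near the background. FOS at day 3 of the TAp63 line and FOSL1 at day 1 of the ΔNp63 line had an unadjusted p under 0.05 (0.0206 and 0.0325). The FOSL1 change was 1.09 with the library that stood apart and 0.11 without it. The factors' median change at day 3 of the ΔNp63 line was -0.11, where all tested genes had -0.01. With the replicate number as a block SP1, which binds GC boxes, fell there by 0.31 in log2 (edgeR adjusted p = 0.0296), with an adjusted p of 0.00362 to 0.443 over the other fits compared. Of 12 other proteins known to be citrullinated, among them vimentin, enolase 1, nucleophosmin and lamin A, 7 genes were tested, and edgeR and DESeq2 called 0 in the 6 comparisons with day 0, with 1 at an unadjusted p under 0.05, again near the background. That gene was VIM, which encodes vimentin, at day 1 of the ΔNp63 line, with a log2 change of 5.09 ± 1.81 (edgeR adjusted p = 0.214) with the library that stood apart and 0.36 ± 1.53 without it (edgeR adjusted p = 1.00). The list's median changes lay between -0.16 and 0.09.

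The genes whose pattern over the 8 groups was most like that of PADI3 were ARHGAP23, SLC27A1, ABCA1, MAN1C1, KRT15, DGKA, LNCTAM34A and SLC26A2. They were ranked by Pearson's r of group medians of log2 CPM over 8 points, among 571 genes whose group medians reached 5 CPM and spanned at least 1 on the log2 scale. Their r ran from 0.930 to 0.986, and the points share libraries and depth with PADI3. These genes were chosen for their likeness, so their values carry no test. They encode products of diverse kinds: ARHGAP23 a GTPase activating protein, SLC27A1 a fatty acid transporter, ABCA1 a cholesterol exporter, MAN1C1 a Golgi mannosidase, KRT15 a basal keratin, DGKA a diacylglycerol kinase, SLC26A2 a sulfate transporter and LNCTAM34A a long noncoding RNA.

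ARHGAP23 was first under each way of running the correlation. Its medians were 7.66, 14.03, 18.9 and 17.6 CPM at days 0, 1, 3 and 6 of the ΔNp63 line and 8.01 to 9.84 CPM in the TAp63 line. KRT15 had the widest range of the 8, with medians of 6.43, 14.3, 28.8 and 29.7 CPM in the ΔNp63 line and 7.30 to 12.7 CPM in the TAp63 line. PADI3 exceeded all 8 in size: their log2 changes at day 6 of the ΔNp63 line ran from 0.73 for SLC26A2 to 2.02 for KRT15, against 4.86 for PADI3. Run over 24 libraries 2 of the 8 were again among the top 8, and over 23 libraries without the one that stood apart 3 were, so the list depends on that choice.

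**Figure D5:**
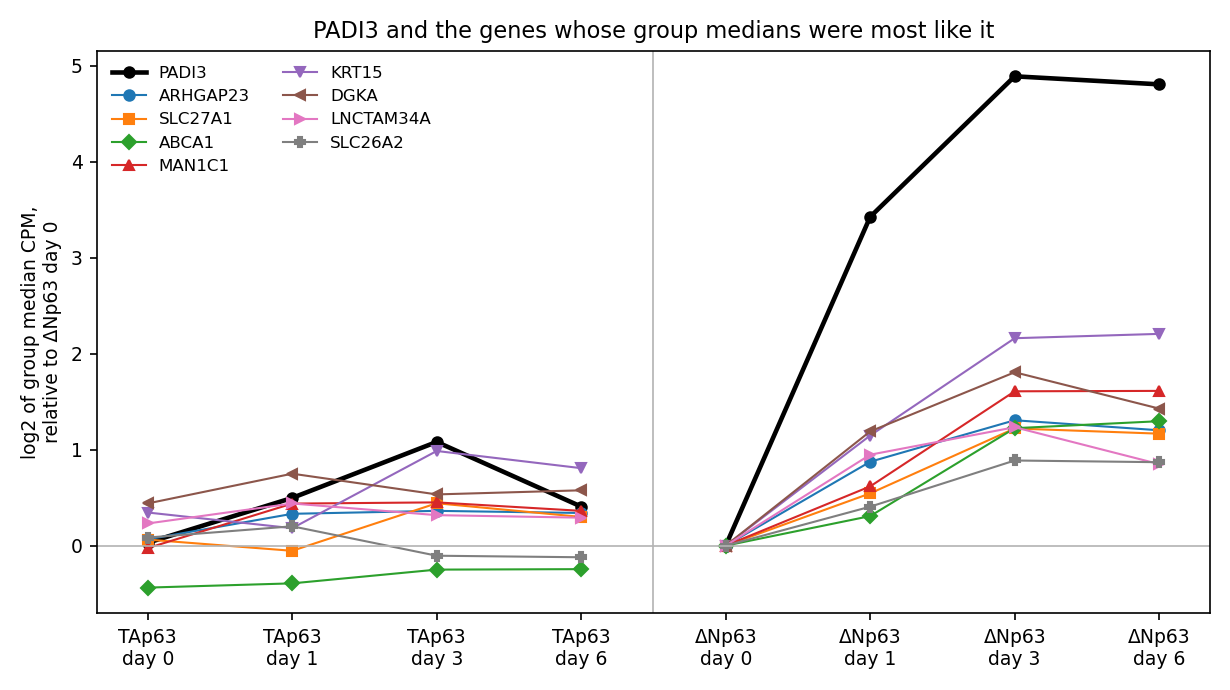
Log2 of the group median CPM relative to day 0 of the ΔNp63 line, for PADI3 (black, thick) and the 8 genes with the most similar group medians, over the 4 days of the TAp63 line (left) and the ΔNp63 line (right). Each of the 9 curves has its highest point at day 3 or day 6 of the ΔNp63 line, where PADI3 has medians of 91.0 and 85.9 CPM and KRT15, the next in size of change, 28.8 and 29.7 CPM.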

How the data were processed

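Messenger RNA was measured in 24 libraries. TRIzol RNA, NEBNext Ultra libraries and NextSeq sequencing are given, per the labels' protocols. The submitters' processing notes name HISAT2 2.1.0, featureCounts 1.6.1 and DESeq2, with hg38. Per the file header, the deposited values are raw counts from featureCounts 2.0.0 on UCSC refGene spans, introns included, paired and unstranded, so unspliced RNA enters each count.

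Here edgeR 4.0.16 under R 4.3.3 fitted all libraries together (glmQLFTest after filterByExpr and TMM), 1 mean for each group, which left 16 residual degrees of freedom. The fit tested 15642 of 28278 genes over 14 comparisons, with Benjamini-Hochberg adjustment over all genes at a threshold of 0.05. CPM are on TMM-adjusted sizes, and the SE is the absolute log2 change over the square root of F. The fit was tested on simulated data. DESeq2 1.42.0 and other alternatives are described in the closing section. Intervals for PADI4 and KLK7 are 95% and cover counting error only, with a floor of 3 counts per group.

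The members and gene lists were chosen with earlier results of these data known. Genes named are the members, TP63, all genes within 300 kb, fixed lists of substrates, enzymes and factors, and the 8 genes most like PADI3. Same-numbered replicates deviated together: over 7 groups without ΔNp63 day 1, all 63 same-number pairs correlated over 0.1 (median 0.503), against 25 of 126 pairs of different number, so the numbers pair the libraries. The main fit does not use this pairing and holds the library that stood apart. Fits with both changed called many more genes, as the closing section gives. No 2 libraries of a group agreed within sampling noise (lowest chi-square per degree of freedom 5.05). RefSeq start regions matched 3 of the 4 members.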

Additional observations from a re-analysis of the deposited data

How the results depend on the processing

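The log2 changes of PADI3 moved by less than 1 SD of its replicates under all 420 combinations of 14 comparisons and 30 alternatives. With the replicate block they were 0.54, 0.89 and 0.43 at days 1, 3 and 6 of the TAp63 line and 3.19, 4.93 and 4.85 in the ΔNp63 line. Over fits that left out a library each, the ΔNp63 changes ran from 2.89 to 3.46, 4.89 to 4.96 and 4.79 to 4.90. The PADI3 replicates at day 1 of that line had log2 CPM of 5.10, 5.05 and 2.05, so an SD over them is a loose measure. PADI1 and PADI2 were called under none of the alternatives. Their lowest adjusted p against day 0 were 0.0801, at day 6, and 0.0817, at day 3 of the ΔNp63 line, both with the replicate block and without the library that stood apart. The block changed no other call of a named gene against day 0 than those of TCHH, SP1, RCC2 and SDHB given above. With the block and without that library, NPM1 and JUN at day 3 and TGM2 and RCC2 at day 6 of the ΔNp63 line were called lower, and SPINK5 (days 3 and 6), ST14 (day 6) and, at day 3 of the TAp63 line, FOS were called higher, and CAPN1 differed between the lines at day 6 (adjusted p = 0.00291). Genes called at days 1, 3 and 6 numbered 19, 68 and 69 in the TAp63 line and 15, 344 and 318 in the ΔNp63 line. With the block alone they were 26, 141 and 122, and 29, 1078 and 714. Without the library that stood apart they were 27, 151 and 154, and 29, 1000 and 784, and with both changes 140, 722 and 568, and 134, 3712 and 2221. DESeq2 called 29, 114 and 101, and 562, 582 and 488. Fits on the compared groups alone called 8, 83 and 72, and 0, 546 and 494. Leaving out single libraries gave 4 to 27, 32 to 151 and 28 to 154, and 3 to 1101, 144 to 1000 and 175 to 784. Of the called enzyme and substrate changes, the numbers of alternatives that lost a call were 34 of 60 for PRSS8, 31 of 117 for KLK7, 6 of 60 for CAPN1 and 5 of 30 for TCHH. TP63 lost 1 call, at day 1 of the ΔNp63 line, where the compared groups were fitted alone (adjusted p = 0.942). DESeq2 alone called TGM2 higher at day 1 of the ΔNp63 line (adjusted p = 0.018), a comparison that holds the library that stood apart. The causes were not tested. Counts limit PADI4 and KLK7. At day 0 KLK7 lay at or below the floor of 3 counts per group. The day 0 groups of PADI4 held 5 counts in the TAp63 line and 14 in the ΔNp63 line.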
